A study of Pseudotaxus chienii and Amentotaxus argotaenia and Torreya grandis with 9 samples.

Results

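Of 88609 gene-level features of a Trinity assembly, 202 were found in twigs of all 3 species studied and stood clearly higher in Pseudotaxus chienii. A feature was called shared when it reached at least 1 TPM (a transcript level corrected for length and scaled to the same total in each library) in all 9 libraries, which 11382 features did. A shared feature became a member when the lowest P. chienii library held at least 3 times the level of the highest of the 6 other libraries, and the P. chienii mean was at most 20 times the mean of each other species. The 202 members are 1.77% of the shared features. The members were chosen by the TPM values themselves, so their higher level in P. chienii is a description and no test of it is offered. The groups were P. chienii, labelled as producing taxol, and Amentotaxus argotaenia and Torreya grandis, both labelled as not producing it, with 3 libraries each. All came from fresh twigs, wood and needles together, of plants aged 3 years grown at 25 degrees Celsius with 12 h of light and 12 h of dark. Only 1 species carries the taxol-producing label, so phenotype and species cannot be told apart. Whether the 3 libraries of a species are separate trees is not stated in the labels, so each SD and p-value covers just the spread between these samples, which can be technical.

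All 3 trees are conifers of the yew family, Taxaceae. Taxol is a diterpenoid anticancer compound of yews, built from a plastid-derived precursor by cytochrome P450 oxygenases and acyltransferases. Trinity joins short reads into transcripts without a genome and names each by a component and a gene number, so that TRINITY_DN43161_c0_g4 is feature g4 of component TRINITY_DN43161_c0. Similar transcripts, such as the counterparts of a gene in different species or its close relatives, can fall into the same component as separate features. The files used here pair no feature ID with a gene name or a sequence, so no member is given a gene name, a role or a pathway.

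Each library summed to between 999890 and 999947 TPM, and TPM keeps no read count, so the depth is unknown and no counting interval is given. Pearson's r on log2(TPM + 1) across features was between 0.879 and 0.955 for pairs of libraries of a species. With 3 libraries in a species, 1 always lies outside the pair with the highest r. Here these were P. chienii replicate 1, A. argotaenia replicate 2 and T. grandis replicate 3, and no fault is read from that. They are called the libraries that stood apart. With these 3 libraries left out the rule found 407 members, and 195 of the 202 were among them. A minimum and a maximum over fewer libraries are easier to pass by construction. Transcripts abundant in P. chienii alone had low values in the other species too. For the 577 features that averaged 100 TPM or more in P. chienii and under 2% of this in both others, the median in each library of the other species was 0.115% to 0.309% of the P. chienii mean. For members, the mean in the lower of the other species was 5.06% to 25.0% of that in P. chienii. The limit and the margin of the rule bound this range from below and above, and the 577 features were chosen to lie under 2%. The gap between members and these features was therefore fixed by how both were chosen, and nothing is read from it.

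The members together made up 2.59% ± 0.0806 of a P. chienii library (SD, n = 3), against 0.411% ± 0.00789 of an A. argotaenia library and 0.378% ± 0.0129 of a T. grandis library. The median member stood at 48.3 TPM in P. chienii, against 6.99 in A. argotaenia and 6.82 in T. grandis. For the 11180 other shared features the medians were 13.5, 12.6 and 13.2 TPM in the same order. The median member was thus above the other shared features in P. chienii and below them in the other species. The rule, which used these same values, favours both directions, so they are a description only. In bulk twigs, fewer cells of a type and less RNA per cell cannot be told apart. Between members the P. chienii mean ran from 5.39 to 3841 TPM. Of the 202, 3 were under 10 TPM in P. chienii, 146 were from 10 to under 100 TPM, 49 were from 100 to under 1000 TPM and 4 were at 1000 TPM or more. In 114 members both other species averaged under 10 TPM.

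**Figure D1:**
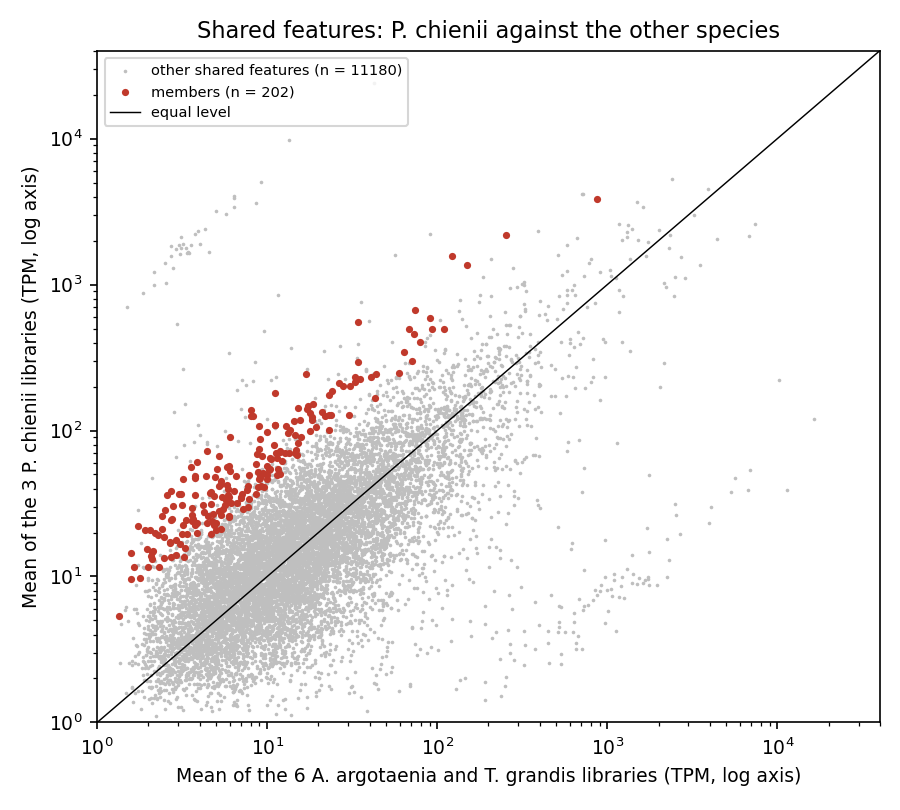
Mean TPM of each shared feature in the 3 P. chienii libraries (vertical, log axis) against its mean in the 6 libraries of the other species (horizontal, log axis), with the 202 members in red, the 11180 other shared features in grey and a line at equal level. Members form a band above the line that reaches from 5.39 to 3841 TPM in P. chienii; grey points farther above it include the 81 features that the limit of 20 times set aside.

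The typical member was 6.51 times as high in P. chienii as in A. argotaenia and 6.62 times as high as in T. grandis, as medians of the ratio of means. For the other shared features the same medians were 1.10 and 1.04. The margin, the lowest P. chienii library over the highest other library, had a median of 3.85 and a range from 3.01 to 11.5 over the members. It lay from 3 to under 4 in 117 members, from 4 to under 6 in 63, from 6 to under 10 in 19 and at 10 or more in 3, so more members stood near the bottom of the range than far above it. Of all shared features, 23.9% had the 3 P. chienii libraries above the 6 others and 2.49%, or 283 features, met the margin of 3. The limit of 20 times then removed 81 of these 283. Of the 81, 4 had a margin from 3 to under 4, 7 from 4 to under 6, 15 from 6 to under 10 and 55 of 10 or more. The limit thus cut mainly the upper end of the margins, and the members' gathering near 3 is partly set by the rule. The rule used these same libraries and this same contrast. By limma on log2(TPM + 1), where a call needs a change of 2-fold or more and an adjusted p under 0.05, all 202 members were called higher in P. chienii than in both others, beside 26.8% of all 75926 features tested and 9.7% of other shared features, and nothing is read from that count.

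**Figure D2:**
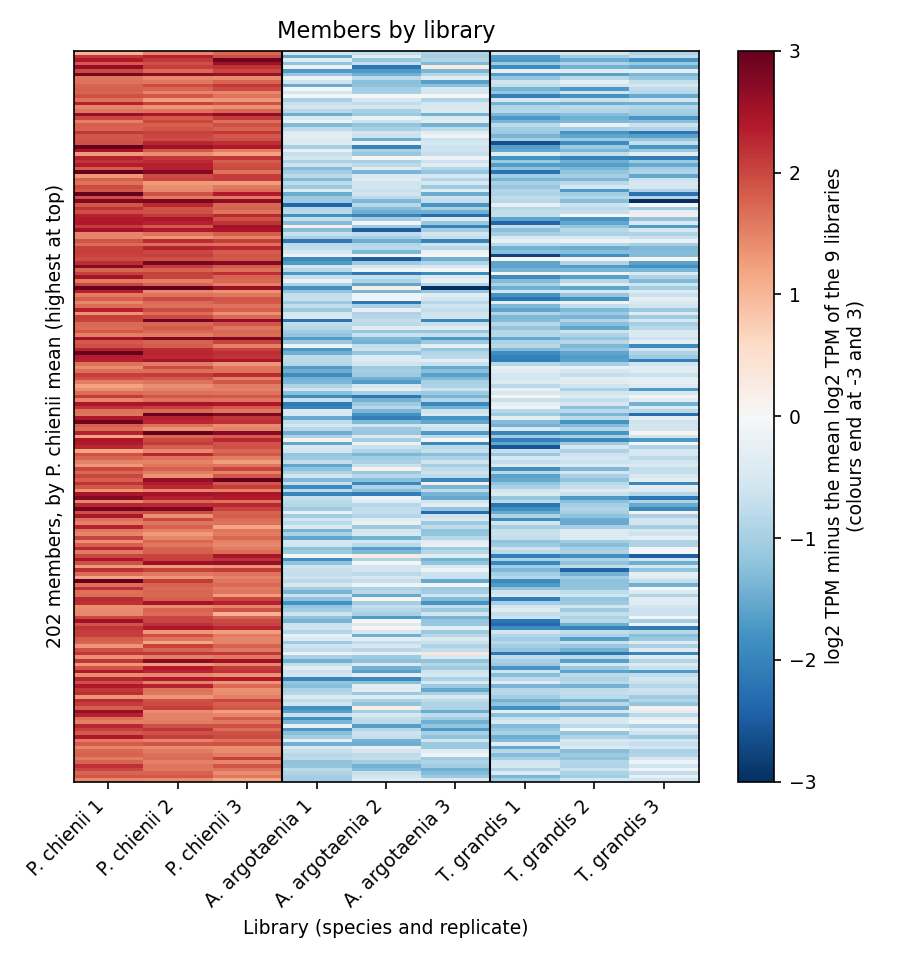
Level of each member (rows, highest P. chienii mean at the top) in each library (columns), as log2 TPM minus the mean log2 TPM of the feature over the 9 libraries; the colours end at -3 and 3. The 3 P. chienii columns are red in every row, which the rule fixes, and A. argotaenia and T. grandis differ from each other in some rows only.

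Applied to the other species in the values as deposited, the same rule found fewer features. It chose 103 features raised in A. argotaenia and 101 raised in T. grandis, against the 202 raised in P. chienii. Its mirror image, with P. chienii the lowest, chose 138 features lowered in P. chienii. These counts are descriptions and the difference between them was not tested. A scaling that centres the shared features (trimmed-mean scaling) gave 172 members in P. chienii, of which 164 were among the 202, and quantile normalization gave 170, of which 149 were. Counts for the other species under these scalings are not given, so the part of scaling in the difference is not known.

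The most abundant member was TRINITY_DN49811_c0_g1. It stood at 2938.5, 3940 and 4645 TPM in P. chienii, against 970, 864 and 739 in A. argotaenia and 959, 941 and 764 in T. grandis. The other species overlapped each other, and the P. chienii mean was 4.48 times that of A. argotaenia and 4.33 times that of T. grandis. TRINITY_DN49553_c1_g1 followed with 2182, 2475 and 1930 TPM in P. chienii, against 175, 389 and 254 in A. argotaenia and 160, 239 and 299 in T. grandis. Here too the other species shared a range, with the lowest library of each under 200 TPM. TRINITY_DN45355_c0_g1 was at 1430, 1184 and 2061 TPM in P. chienii, against 206, 123 and 144 in A. argotaenia and 81.5, 96.2 and 79.1 in T. grandis. For this feature the species did not overlap, and P. chienii stood 9.91 times above A. argotaenia and 18.2 times above T. grandis. TRINITY_DN48010_c0_g1 completed the 4 members at 1000 TPM or more, with 1109, 1190 and 1814 TPM in P. chienii, against 134, 190 and 124 in A. argotaenia and 146, 164 and 143 in T. grandis.

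The next 4 members were a step lower in P. chienii. TRINITY_DN36040_c0_g2 was at 834, 560 and 600 TPM in P. chienii, against 117, 29.7 and 161 in A. argotaenia and 36.9, 49.8 and 46.3 in T. grandis. Its A. argotaenia libraries were the least alike of these 8 members, with replicate 2 below every T. grandis library. TRINITY_DN47842_c0_g1 was at 624, 512 and 634 TPM in P. chienii, against 49.0, 48.8 and 61.4 in A. argotaenia and 129, 127 and 131 in T. grandis. T. grandis was therefore the middle species for this feature, with no overlap on either side. TRINITY_DN50544_c1_g2 was at 613, 547 and 514 TPM in P. chienii, against 38.1, 31.2 and 46.3 in A. argotaenia and 27.3, 28.2 and 32.9 in T. grandis. TRINITY_DN48086_c0_g1, the single feature of its component, was at 539, 483 and 478 TPM in P. chienii, against 157, 103 and 139 in A. argotaenia and 79.2, 100.2 and 79.6 in T. grandis. The lowest A. argotaenia library of this feature stood just above the highest T. grandis library. P. chienii was the highest species in each, by the rule, while the order of the other species changed from feature to feature.

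**Figure D3:**
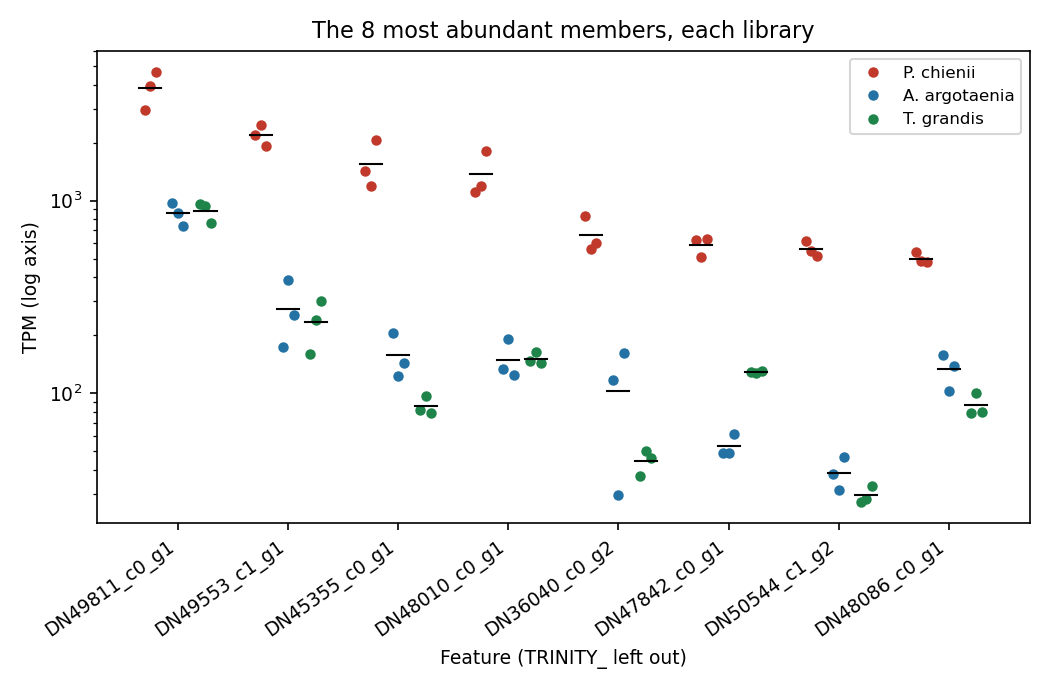
TPM (log axis) of the 8 members with the highest P. chienii mean in each library, with P. chienii in red, A. argotaenia in blue and T. grandis in green; points are the 3 libraries and black bars their means. T. grandis is above A. argotaenia without overlap in TRINITY_DN47842_c0_g1 and below it without overlap in TRINITY_DN45355_c0_g1 and, narrowly, in TRINITY_DN48086_c0_g1.

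The 4 widest margins belonged to members above the median level of 48.3 TPM in P. chienii. TRINITY_DN53516_c2_g1 had 248, 221 and 259 TPM in P. chienii, against 14.8, 18.8 and 15.2 in A. argotaenia and 16.0, 16.9 and 19.1 in T. grandis, a margin of 11.5. TRINITY_DN50544_c1_g2, given above, had a margin of 11.1. TRINITY_DN46590_c0_g1 had 128, 132 and 118 TPM in P. chienii, against 8.90, 7.39 and 11.4 in A. argotaenia and 10.5, 7.71 and 2.28 in T. grandis, a margin of 10.4. TRINITY_DN43803_c0_g1 had a margin of 8.62, with 67.1, 104 and 97.6 TPM in P. chienii, against 4.48, 6.78 and 7.60 in A. argotaenia and 4.82, 7.79 and 4.77 in T. grandis. In all 4 of these members A. argotaenia and T. grandis overlapped.

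At the margin of 3, the nearest features on either side of it differed little in margin, which is how they were picked. TRINITY_DN37040_c0_g2, TRINITY_DN51054_c0_g2 and TRINITY_DN53585_c3_g1 were just inside, at margins of 3.006, 3.007 and 3.011. Their P. chienii means were 5.39, 28.9 and 17.4 TPM. TRINITY_DN49606_c0_g1, TRINITY_DN37315_c0_g1 and TRINITY_DN46479_c0_g1 were just outside, at margins of 2.976, 2.975 and 2.974, with P. chienii means of 26.2, 87.2 and 44.2 TPM. At the limit of 20 times, TRINITY_DN46136_c0_g2, TRINITY_DN48611_c0_g1 and TRINITY_DN44113_c0_g3 were inside with largest mean ratios of 19.7, 19.5 and 19.2. Each of these was lowest in T. grandis, where the 3 means were 2.76, 1.24 and 1.61 TPM. TRINITY_DN39008_c0_g1, TRINITY_DN53050_c1_g2 and TRINITY_DN43282_c0_g1 were outside with ratios of 20.5, 20.5 and 20.7.

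Members were steady within P. chienii. The coefficient of variation over the 3 P. chienii libraries had a median of 11.8% over members and 14.4% over other shared features. In A. argotaenia the medians were 20.1% and 17.9%, and in T. grandis 18.0% and 15.0%. The members' lower levels in these species and a rule on the lowest P. chienii library both go with this order, and their part in it was not tested. TRINITY_DN41098_c1_g1 was the steadiest, at 22.4, 22.6 and 22.5 TPM in P. chienii, against 4.61, 4.31 and 6.53 in A. argotaenia and 1.16, 1.14 and 1.32 in T. grandis. TRINITY_DN38405_c0_g1 and TRINITY_DN50142_c0_g1 also varied little in P. chienii, by 1.26% and 1.33%.

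The least steady members were high in P. chienii replicate 1. TRINITY_DN53650_c4_g2 was at 226, 128 and 59.4 TPM in P. chienii, against 9.38, 7.39 and 8.61 in A. argotaenia and 4.15, 8.60 and 10.3 in T. grandis. TRINITY_DN40650_c0_g1 was at 211, 71.6 and 97.7 TPM in P. chienii, against 6.72, 12.6 and 6.72 in A. argotaenia and 10.01, 9.20 and 4.01 in T. grandis. TRINITY_DN39613_c2_g1 was at 46.9, 22.7 and 16.2 TPM in P. chienii, against 3.08, 3.26 and 1.87 in A. argotaenia and 1.41, 2.26 and 3.16 in T. grandis. Replicate 1 was the highest P. chienii library in 94 of the 202 members, or 46.5%, and in 41.8% of the other shared features. Across members its median level was 1.02 times the species mean, beside 0.994 in replicate 2 and 0.967 in replicate 3, so the 3 libraries lay close together.

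The rule sets no order between A. argotaenia and T. grandis, and their contrast was tested in the same limma fit over all 75926 features. It does bound the size of their difference, because the P. chienii mean must be at most 20 times, and the lowest P. chienii library at least 3 times, the level of either. Of the 202 members, 13 were called higher in A. argotaenia and 9 lower by the same thresholds. That is 6.44% higher and 4.46% lower, beside 14.5% and 17.6% of the other shared features and 27.5% and 20% of all features tested. The median log2 fold change of A. argotaenia over T. grandis was 0.11 over members, -0.07 over other shared features and 0.00 over all features. In 112 members, or 55.4%, the A. argotaenia mean was the higher one, beside 46.5% of the other shared features. The means lay within 2-fold in 173 members, or 85.6%, beside 61.9% of the other shared features, and the rule's bound narrows this difference in members. A. argotaenia and T. grandis libraries were fully apart in 86 members, or 42.6%, beside 62.7% of the other shared features. Fewer members than other shared features were thus called, but the bound that the rule sets and the members' low levels in both species go with this count, and their part in it was not tested. Trimmed-mean scaling gave 17 higher and 7 lower, and quantile normalization gave 10 higher and 14 lower, which turned the balance of the calls. Without the 3 libraries that stood apart, 20 members were higher and 9 lower in A. argotaenia.

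**Figure D4:**
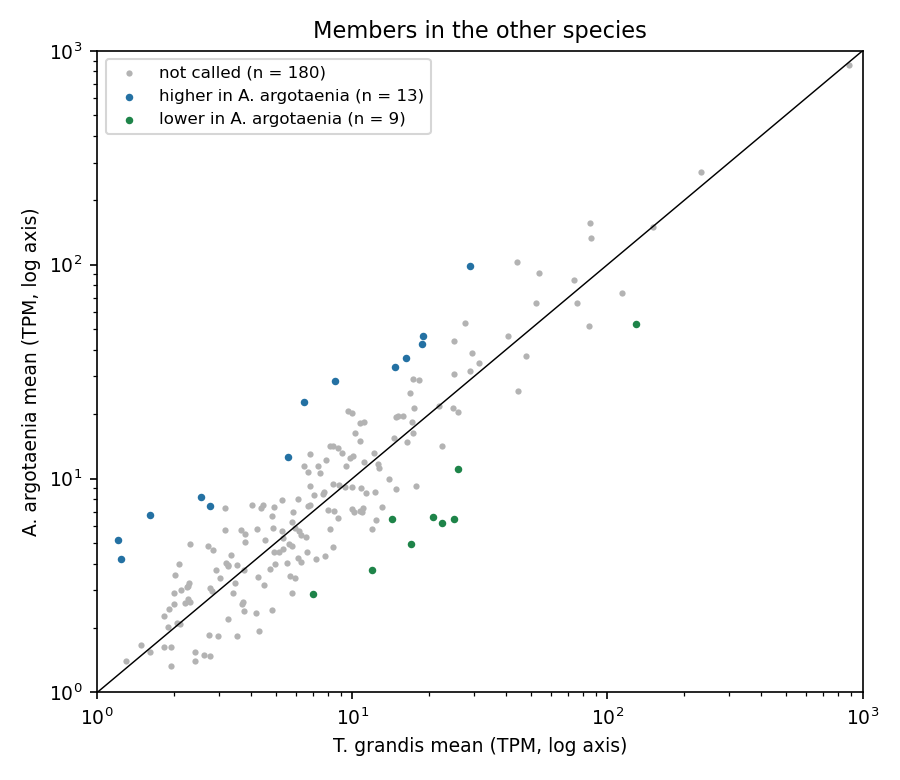
Mean TPM of the 202 members in A. argotaenia (vertical, log axis) against T. grandis (horizontal, log axis), with a line at equal level; colours mark the 13 called higher in A. argotaenia, the 9 called lower and the 180 not called by limma. Points lie along the line over nearly the whole range of levels, and called members sit on both sides of it.

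Among members higher in A. argotaenia, TRINITY_DN34722_c0_g1 was at 92.5 ± 6.45 TPM in P. chienii (SD, n = 3). It stood at 21.0, 23.1 and 24.2 TPM in A. argotaenia, against 3.43, 6.48 and 9.45 in T. grandis, with a log2 change of 1.76 ± 0.27 (SE; limma adjusted p = 0.000568). TRINITY_DN51582_c0_g1 stood at 97.2, 99.8 and 99.2 TPM in A. argotaenia, against 23.9, 28.6 and 34.4 in T. grandis, with a log2 change of 1.75 ± 0.15 (SE; limma adjusted p = 1.3e-05), below 343 ± 36.4 TPM in P. chienii. These 2 features formed a series of 3 levels, with P. chienii above A. argotaenia and A. argotaenia above T. grandis. The rule puts P. chienii on top in every member, so each member called higher in A. argotaenia has this order. TRINITY_DN50311_c1_g4 rose by 1.62 ± 0.16 on the log2 scale (SE; limma adjusted p = 2.94e-05), with 28.6 ± 5.36 TPM in A. argotaenia, against 8.56 ± 0.854 in T. grandis. TRINITY_DN44113_c0_g3 rose by 1.56 ± 0.20 (SE; limma adjusted p = 0.000174), with 6.75 ± 1.51 TPM in A. argotaenia, against 1.61 ± 0.346 in T. grandis.

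In the members lower in A. argotaenia, T. grandis was the middle species, which follows from the call because the rule puts P. chienii on top. TRINITY_DN48896_c0_g1 was at 90.0 ± 3.93 TPM in P. chienii (SD, n = 3), against 6.32, 4.34 and 8.69 in A. argotaenia and 24.9, 25.1 and 25.4 in T. grandis, with a log2 change of -1.85 ± 0.20 for A. argotaenia over T. grandis (SE; limma adjusted p = 5.48e-05). TRINITY_DN45982_c0_g3 was at 7.19, 6.31 and 5.13 TPM in A. argotaenia, against 15.1, 24.1 and 28.1 in T. grandis, with a log2 change of -1.67 ± 0.22 (SE; limma adjusted p = 0.000221). TRINITY_DN38713_c1_g2 averaged 4.92 ± 0.701 TPM in A. argotaenia, against 16.9 ± 3.02 in T. grandis, with a log2 change of -1.59 ± 0.16 (SE; limma adjusted p = 3.15e-05). TRINITY_DN45052_c2_g1 averaged 6.62 ± 1.68 TPM in A. argotaenia, against 20.7 ± 0.632 in T. grandis, with a log2 change of -1.53 ± 0.17 (SE; limma adjusted p = 6.3e-05). As a sum over all members, A. argotaenia held 4112 ± 78.9 TPM and T. grandis 3783 ± 129 TPM (SD, n = 3 each). The exact two-sided permutation test gave p = 0.1, the smallest that 3 against 3 libraries allow.

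Whether a raised feature stands for a raised component was examined next, because transcripts of one component can be divided between features. The 202 members lay in 201 components, since only TRINITY_DN47903_c0 held 2 of them. In 66 members, or 32.7%, the member was the single feature of its component, beside 35.3% of the other shared features. The other 136 lay in 135 components of several features, with up to 11 features in a component. In P. chienii these 136 members held a median of 90.5% of their component's TPM, in A. argotaenia 51.7% and in T. grandis 64.6%. For other shared features in such components the medians were 82.5% in P. chienii, against 77.7% for A. argotaenia and 80.8% for T. grandis. In 37 of the 136 members, or 27.2%, the member held over 50% of its component in P. chienii and under 50% in both others, beside 6.38% of other shared features in such components. Since the member's own level enters both sides, these shares are partly set by the rule.

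Every member meets the margin of 3 by the rule, and its level enters the component total, so the totals are a description and their distance from the members' own margins is no test. In 118 of 201 components, or 58.7%, the total met the margin of 3 as well, and in 169, or 84.1%, all P. chienii libraries stood above all others. Leaving out the single features, where member and total are identical, 52 of 135 components kept the margin of 3, or 38.5%, and 103 had no overlap, or 76.3%. For the same rule in the other species, 51.3% of 76 components of several features raised in A. argotaenia kept the margin, 38.9% of 72 raised in T. grandis did, and 32.7% of 110 in the mirrored rule for P. chienii did. The shares with no overlap were 90.8%, 90.3% and 69.1% in the same order. Over all components, single features included, they were 93.2%, 93.1% and 75.2%. The share with no overlap was lower for features raised in P. chienii than for those raised in either other species. At the margin of 3, its 38.5% was close to the 38.9% for T. grandis. These differences were not tested, and no share over all components is given beside them, so nothing is read from them. As a ratio of means, the total in the 135 components was a median of 3.87 times as high in P. chienii as in the other libraries. It was 3 times or more in 79 components, from 2 to under 3 times in 22, from 1 to under 2 times in 22 and under 1 in 12.

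**Figure D5:**
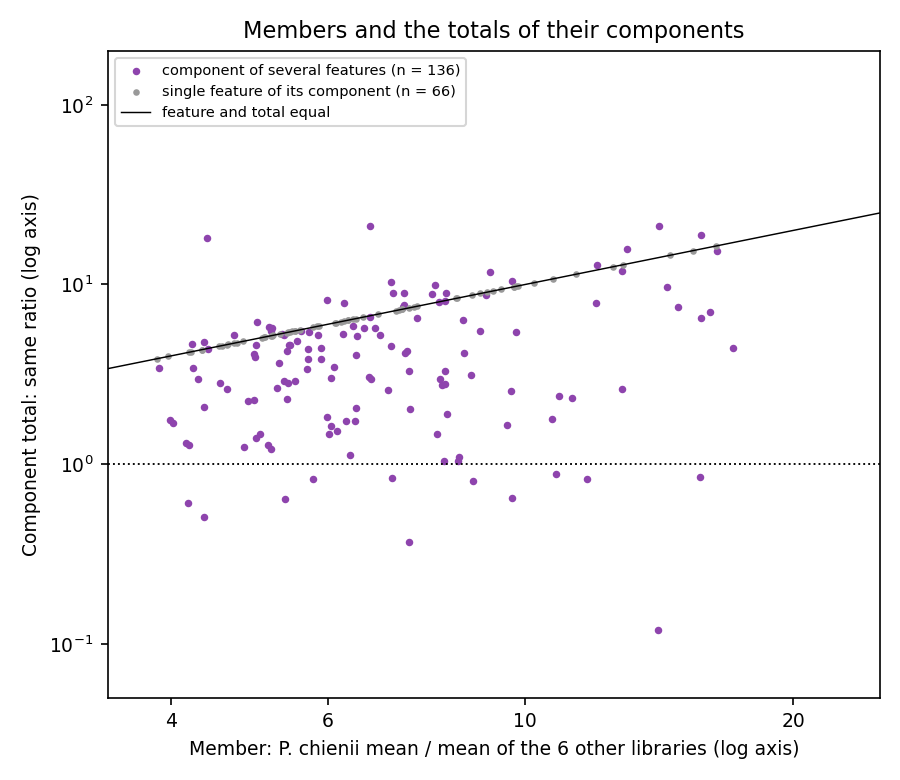
Ratio of the P. chienii mean to the mean of the 6 other libraries for each member (horizontal, log axis) and for the total of its component (vertical, log axis). Grey points are the 66 members that are single features and lie on the line of equal ratio; purple points are the 136 in components of several features, most of them below the line, and those of 12 components lie below the dotted line at a ratio of 1.

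The features of a component that were not shared were summed and called its remainder. Members are left out of it, but the clause of 1 TPM in all 9 libraries decides which features enter. A remainder therefore holds only features that were under 1 TPM in at least 1 library, which a species difference can itself bring about, and its calls are read only beside those of other components. Of the 135 components of several features, 9 had no such feature and 6 had a remainder under the filter of 1 TPM in at least 3 libraries, which left 120. The remainders were fitted with limma over all 34830 components that passed the filter. Against A. argotaenia, 47 of the 120 remainders were lower in P. chienii, or 39.2%, and 40 were higher, or 33.3%. For components with a shared feature and no member the same shares were 37.6% and 30.0%, and for all remainders tested 33.3% and 27.6%. Against T. grandis, 39 were lower in P. chienii, or 32.5%, and 43 higher, or 35.8%, beside 33.1% and 32.4% in components with a shared feature and no member and 25.4% and 29.3% in all remainders tested. With this definition, remainders of member components were called in both directions, at shares close to those in other components with shared features. Both comparisons share the P. chienii libraries.

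Another definition of the remainder gave a different picture. With only the members left out, so that other shared features stay in the sum, 131 member components were tested. Against A. argotaenia, 48 remainders were lower in P. chienii, or 36.6%, and 40 were higher, or 30.5%. In 10535 components with a shared feature and no member these shares were 16.8% and 20.6%, and in all 39353 remainders tested 28.2% and 25.4%. The median log2 fold change against A. argotaenia was -0.40 in member components and 0.09 in components with a shared feature and no member. Against T. grandis, 44 were lower, or 33.6%, and 40 higher, or 30.5%, beside 17.2% and 19.4% in components with a shared feature and no member and 22.0% and 26.2% in all remainders tested. The median log2 fold change against T. grandis was 0.00 in member components and 0.05 in the others with a shared feature. Member components were thus called more often in both directions than components with a shared feature and no member, whose sums here keep their shared features while a member component loses its member. The part of that inequality in the difference was not tested.

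The remainders named from here on were picked by their calls, and hold only features under 1 TPM in at least 1 library. Their p-values are therefore descriptions, and nothing is read from them. TRINITY_DN43161_c0_g4 was a member whose remainder was lower in P. chienii. The member was at 261, 238 and 249 TPM in P. chienii, against 63.9, 66.4 and 68.1 in A. argotaenia and 51.2, 55.2 and 51.7 in T. grandis. The remainder of TRINITY_DN43161_c0 was at 0.29, 2.43 and 1.35 TPM in P. chienii, against 155, 147 and 152 in A. argotaenia and 124, 139 and 109 in T. grandis. Its log2 fold change was -6.13 ± 0.32 against A. argotaenia (SE; limma adjusted p = 7.71e-07) and -5.83 ± 0.32 against T. grandis (SE; limma adjusted p = 9.38e-07). Member and remainder together came to 251 ± 10.5 TPM in P. chienii (SD, n = 3), against 218 ± 3.77 in A. argotaenia and 177 ± 17.0 in T. grandis, so the totals of the species lay far closer than the levels of the member. In TRINITY_DN37450_c0, the remainder was at 0.00, 0.08 and 0.15 TPM in P. chienii, against 7.01, 6.78 and 24.0 in A. argotaenia and 15.5, 22.3 and 11.6 in T. grandis, and was called lower in P. chienii than in each (limma adjusted p = 0.000168 and 7.45e-05). Its member TRINITY_DN37450_c0_g2 was at 180 ± 53.0 TPM in P. chienii, against 12.5 ± 5.26 in A. argotaenia and 9.77 ± 2.60 in T. grandis, and the total still met the margin, at 3.47.

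In the most abundant member, TRINITY_DN49811_c0_g1, the remainder was small beside the feature itself. It averaged 0.0433 ± 0.0451 TPM in P. chienii, against 11.5 ± 2.75 in A. argotaenia and 4.64 ± 2.53 in T. grandis (SD, n = 3 each), lower in P. chienii than in A. argotaenia (limma adjusted p = 2.05e-05) and T. grandis (limma adjusted p = 0.000326). The member held 98.7% or more of the component in every species. The remainder of TRINITY_DN51582_c0 was likewise low, listed at 0 in all P. chienii libraries, against 2.21 ± 0.800 TPM in A. argotaenia and 1.65 ± 0.474 in T. grandis (limma adjusted p = 0.000185 and 0.000601). For both components the total and the member carried nearly the same difference.

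Other remainders rose in P. chienii. In TRINITY_DN48010_c0 the remainder was at 379, 354 and 491 TPM in P. chienii, against 1.08, 0.61 and 1.31 in A. argotaenia and 1.24, 0.77 and 0.00 in T. grandis. Its log2 fold change was 7.68 ± 0.32 against A. argotaenia (SE; limma adjusted p = 4.41e-07) and 8.0 ± 0.32 against T. grandis (SE; limma adjusted p = 3.88e-07). The total was 1779 ± 456 TPM in P. chienii (SD, n = 3), against 150.3 ± 35.5 in A. argotaenia and 152 ± 11.5 in T. grandis, with a margin of 7.79 against 5.83 for the member TRINITY_DN48010_c0_g1. In TRINITY_DN53516_c2 the remainder was at 136 ± 32.9 TPM in P. chienii, against 0.447 ± 0.499 in A. argotaenia and 44.1 ± 12.4 in T. grandis. It rose against A. argotaenia by 6.59 ± 0.31 (SE; limma adjusted p = 6.07e-07) and against T. grandis by 1.61 ± 0.31 on the log2 scale (SE; limma adjusted p = 0.00187). Its total had a margin of 4.38 against 11.5 for the member TRINITY_DN53516_c2_g1, since T. grandis held part of its level in other features.

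TRINITY_DN43413_c0 and TRINITY_DN46387_c0 had smaller remainders that rose. The first was at 29.2 ± 12.9 TPM in P. chienii, against 0.06 ± 0.104 in A. argotaenia and 1.91 ± 3.17 in T. grandis (SD, n = 3 each; limma adjusted p = 0.000327 and 0.00133). Its member TRINITY_DN43413_c0_g3 was at 497 ± 62.5 TPM in P. chienii, against 51.5 ± 5.80 in A. argotaenia and 84.4 ± 6.06 in T. grandis libraries. The second was at 8.63, 7.18 and 3.65 TPM in P. chienii and listed at 0 in every library of the other species (limma adjusted p = 1.52e-05 and 1.68e-05). This remainder passed the filter through the P. chienii libraries alone, so its direction was fixed in advance. That component also holds a shared feature that is no member. With only the member left out, the remainder was no longer 2-fold higher than in T. grandis, at a log2 fold change of 0.45 ± 0.11 (SE; limma adjusted p = 0.00834).

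Several members stood in components whose total was not higher in P. chienii than in both others. TRINITY_DN47903_c0, the component with 2 members, held TRINITY_DN47903_c0_g1 at 401 ± 47.9 TPM in P. chienii, against 85.0 ± 14.0 in A. argotaenia and 74.1 ± 13.6 in T. grandis (SD, n = 3 each). It also held TRINITY_DN47903_c0_g2 at 38.6 ± 8.81, 6.95 ± 0.756 and 5.88 ± 2.17 TPM in the same order. The total was 442 ± 53.3 TPM in P. chienii, against 519 ± 65.2 in A. argotaenia and 81.2 ± 14.4 in T. grandis, so other features carried most of the A. argotaenia level. TRINITY_DN44113_c0_g3 held 88.1% of its component in P. chienii, against 5.38% for A. argotaenia and 2.43% for T. grandis. The total of TRINITY_DN44113_c0 was 35.1 ± 5.36 TPM in P. chienii, against 125 ± 22.4 in A. argotaenia and 66.2 ± 0.972 in T. grandis. TRINITY_DN45730_c1_g2, singled out after its values were seen as the member with the lowest ratio of totals, was at 43.3, 41.0 and 24.3 TPM in P. chienii, against 2.85, 3.57 and 2.62 in A. argotaenia and 1.65, 3.16 and 1.57 in T. grandis. Its component totalled 38.4 ± 10.2 TPM in P. chienii, against 638 ± 217 in A. argotaenia and 5.0 ± 2.35 in T. grandis. Counterparts of a gene or separate genes of a family could both be features of 1 component, and no sequences were compared.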

How the data were processed

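RNA-seq tables of 9 twig libraries were used, 3 for each species. The deposited values are in TPM with 2 decimals, 1 table per library over the same 88609 features. The unit was read from the values, because the file headers name none: each library sums to between 999890 and 999947. Per the labels, Trizol was used for total RNA. The form of the IDs is Trinity's; the quantifier, versions and filters, not given in the sources used here, are unknown.

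Species came from the sample titles. Features with IDs that are alike up to the gene number form a component (42956 components, 19211 of them with several features). Tests used limma 3.58.1 (R 4.3.3) on log2(TPM + 1) with an intensity trend, which understates the change of low features. The 75926 features, or the 34830 component remainders, at 1 TPM or more in at least 3 libraries were fitted together by species alone, two-sided, with Benjamini-Hochberg adjustment over all of them. A call needed a change of 2-fold or more and an adjusted p under 0.05. Trimmed-mean scaling divided each library by 2 to the power of the mean log2 deviation of its shared features, after trimming 30% at each end. Python 3.11.15, pandas 2.3.3, numpy 2.4.6, scipy 1.17.1 and matplotlib 3.10.9 made the other tables and the figures. The limma script was also run on simulated data, with independent libraries and changes added in A. argotaenia alone. The data used here differ from that setting, so nothing is drawn from it.

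The members, lists and tests were chosen with earlier results of these data known. Features were named by a rule: the 8 members highest in P. chienii, the 4 with the widest margin, the 3 on either side of the margin of 3 and of the limit of 20, the 4 with the largest called change each way between A. argotaenia and T. grandis, the component with the most members, the 4 components with the highest member level whose remainder was called lower than in both others and the 4 called higher, and the 3 least and the 3 most variable in P. chienii. Alternatives covered the thresholds of the rule, pseudocounts, filters, scaling, the trend, the species fitted, a replicate block, the minimum fold and each library left out. Leaving out the 3 libraries that stood apart, and both scalings of the summed member level, were added after seeing the data. Gene lists could not be matched to unnamed features and none was tested.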

Additional observations from a re-analysis of the deposited data

How the results depend on the processing

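The number of members moved with the thresholds. It was 605 with a margin of 2, 85 with a margin of 4, 132 with a limit of 10 times, 87 with at least 5 TPM in all 9 libraries and 407 without the 3 libraries that stood apart; without each single library it lay between 209 and 270. Component totals with a margin of 3 numbered 118, between 123 and 148 without each single library, and 233 of 405 components without the 3 that stood apart. Members called between A. argotaenia and T. grandis, 13 higher and 9 lower, became 6 and 5 with a pseudocount of 5, 38 and 32 with no minimum fold, and 0 and 0 at 4-fold by limma, where 87 members had an unadjusted p under 0.05 without a minimum fold. Quantile normalization gave 10 higher and 14 lower; without the 3 libraries that stood apart 20 were higher. Without each single library 13 to 19 were higher and 8 to 11 lower. With a mean of at least 5 TPM, 72 remainders were tested, of which 31 were lower and 23 higher in P. chienii than in A. argotaenia, and 24 lower and 24 higher than in T. grandis. Without each single library the remainders gave 43 to 47 lower and 38 to 41 higher against A. argotaenia, and 37 to 39 lower and 41 to 44 higher against T. grandis. All 202 members were called higher than both others without each single library, beside 1025 to 1141 of the 11180 other shared features. The rule chose members on this contrast, so nothing is read from that count, here or with the replicate block. Trimmed-mean scaling moved the median log2 fold change of the other shared features of P. chienii against A. argotaenia to -0.02, beside 0.12 as deposited. Of 516 values for the 24 tests of single features and remainders named above, 500 kept their call and 16 lost it, through a pseudocount of 5, the 4-fold minimum or leaving out the members only; none turned direction. Deviations of same-numbered libraries of different species had r from -0.293 to 0.188 over 9 pairs, 3 of them over 0.1. Between the libraries that stood apart r was higher. It was 0.298 for P. chienii replicate 1 with A. argotaenia replicate 2 and 0.398 for P. chienii replicate 1 with T. grandis replicate 3. For A. argotaenia replicate 2 with T. grandis replicate 3 it was 0.328. With 3 libraries per species, these values cannot settle whether the numbers pair the samples. With the replicate block the calls were 13 higher and 9 lower members, 202 members higher than both others, and 45 lower and 40 higher remainders against A. argotaenia and 38 and 43 against T. grandis. TPM keeps no read count, so the precision of members near 1 TPM is unknown.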
